A study of Mus musculus with 4 samples.

Results

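The genes described here are 10 markers of mouse embryonic stem cells that are not classical transcription factors: Dppa2, Dppa3, Dppa4, Dppa5a, L1td1, Pecam1, Fbxo15, Alpl, Tdh and Epcam. A gene was taken from the deposited table where the platform's annotation gave a row that symbol alone, and the brightest row stood for the gene. This found 12 rows for 9 of the 10 genes, among 19938 genes in all, and Tdh was not analysed here. The samples were E14 mouse embryonic stem cells infected with a lentivirus carrying an shRNA against Usp22 (Usp22 depletion, 2 arrays) or a Luc shRNA (control, 2 arrays). Both groups were cultured feeder-free on gelatin with LIF, 20% FBS and the inhibitor pair known as 2i, in which PD0325901 (1 µM) blocks MEK and CH99021 (3 µM) blocks GSK3, so every value below is from cells held in 2i and LIF. The labels do not state whether the arrays of 1 group stem from separate cultures. The p-values then reflect the spread among these arrays alone, which may be technical.

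These markers are used to recognise pluripotent cells because they are abundant in them. Not all are confined to these cells, as Pecam1 is also found on endothelium and Epcam on epithelia. Dppa stands for developmental pluripotency associated, a name given for a shared expression pattern, and the 4 Dppa genes encode unlike proteins. Dppa2 and Dppa4 bind DNA together as a pair, Dppa3 (Stella) affects DNA methylation in the egg and early embryo, and Dppa5a binds RNA. Pecam1, Epcam and the alkaline phosphatase encoded by Alpl stand on the cell surface and serve to sort or stain stem cells. L1td1 encodes an RNA-binding protein related to the first open reading frame of LINE-1 elements, and Fbxo15 an F-box protein whose gene is a classic target of Oct4 and Sox2. Usp22 is the deubiquitinating enzyme of the SAGA coactivator complex.

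Values are log2 signals after quantile normalization between the 4 arrays, and differences are Usp22 depletion minus control from limma, with Benjamini-Hochberg adjustment over all 19938 genes and a threshold of 0.05. Usp22 itself read 8.23 and 8.29 on the depleted arrays, against 9.41 and 9.36 on the controls (log2 fold change −1.12, limma adjusted p = 0.00826). All 7 defining stem cell markers checked (Pou5f1, Sox2, Nanog, Zfp42, Esrrb, Klf4 and Utf1) lay above the receptor background, which is the 95th percentile of the mean log2 signals of 1194 olfactory and vomeronasal receptor genes, 6.99. Of them 0 rose and 0 fell by limma, with a median of −0.31 (1 higher and 1 lower at an unadjusted p under 0.05). When limma was given an intensity trend and robust variance settings, 1 was called higher, Sox2 (0.59, limma adjusted p = 0.012), and 2 lower. The lower ones were Nanog (−0.42, limma adjusted p = 0.00257) and Klf4 (−0.64, limma adjusted p = 0.0215). Control replicate 2 stood apart: its Pearson correlation across genes was 0.941 with control replicate 1 and 0.877 and 0.908 with the depleted arrays, while the depleted arrays correlated at 0.978. The difference of each marker is therefore also given without control replicate 2.

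None of the 9 measured markers passed the test in the fit used here: 0 rose and 0 fell (limma), against 2.73% of all genes called (2.62% higher and 0.105% lower). At an unadjusted p under 0.05, 1 was higher, Pecam1, and 0 were lower. By their group means 7 stood higher and 2 lower, with a median log2 fold change of 0.28, against −0.12 over all genes and −0.03 over the 9736 genes above the receptor background. Without control replicate 2 the median of the markers was 0.14, and that of all genes −0.05. For 6 of the 9 the unadjusted 95% interval lay within −1 and 1 on the log2 scale. In bulk RNA such as this, fewer cells carrying a marker and less of its RNA per cell cannot be told apart. The depleted arrays did not overlap the controls for 5 of the 9 markers (55.6%), 4 higher (Pecam1, Epcam, Dppa2 and Fbxo15) and 1 lower (L1td1). That share lay near the 60.7% of all genes without overlap (27.4% higher and 33.3% lower) and under the 74.6% of genes above the receptor background, so it is not a result about the markers. All 9 markers lay above the receptor background, and the dimmest of them, Pecam1, was brighter than 84.0% of the named genes.

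**Figure D1:**
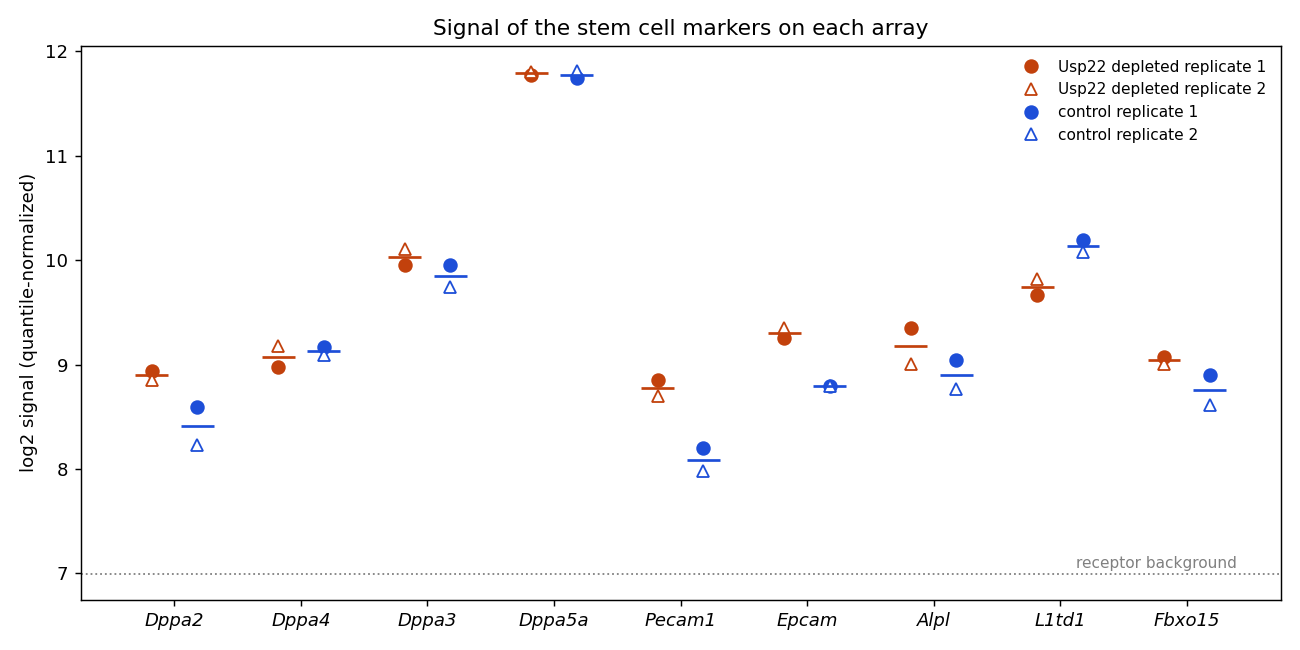
Log2 signal (y axis, quantile-normalized) of the 9 measured markers (x axis) on the 2 Usp22-depleted arrays (orange, left of each pair) and the 2 control arrays (blue, right), with horizontal bars at the group means. The groups stand clear of each other for Pecam1, Epcam, Dppa2 and Fbxo15 (depleted higher) and for L1td1 (depleted lower), and overlap for Dppa4, Dppa3, Dppa5a and Alpl.

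By the brightest row of each Dppa gene, Dppa2 was the one whose groups stood apart, but its second row gave a difference of only 0.12. The dimmer row of Dppa3 also stood apart, as described below. Dppa2, which carries a SAP domain and partners Dppa4 on DNA, read 8.94 and 8.86 on the depleted arrays, against 8.60 and 8.23 on the control arrays. Both depleted values exceeded both controls, with an SD of 0.061 for depletion and 0.26 for control (n = 2 each). The log2 fold change was 0.48 (standard error 0.27, limma adjusted p = 0.255), or 1.40-fold, and 0.30 without control replicate 2. Dppa4, its partner and neighbour in the genome with 0 annotated genes between the start sites of the pair, read 8.98 and 9.18 on the depleted arrays, against 9.17 and 9.10 on the controls. These groups overlapped, and the log2 fold change was −0.05 (95% interval −0.58 to 0.47, limma adjusted p = 0.889), and −0.09 without control replicate 2. Its sign depended on the processing, with 0.18 under median centring of the arrays, 0.03 on the deposited log2 values and 0.05 without depleted replicate 1. Whether Dppa2 and Dppa4 differed in their response was not tested.

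Dppa3, also called Stella or PGC7, is a marker of the egg, the early embryo and primordial germ cells. It read 9.95 and 10.11 on the depleted arrays, against 9.96 and 9.74 on the controls, so control replicate 1 lay level with depleted replicate 1. The log2 fold change was 0.18 (95% interval −0.35 to 0.70, limma adjusted p = 0.642), and 0.07 without control replicate 2. Dppa5a, also called Esg1 and encoding an RNA-binding protein with a KH domain, had the tightest values of the set: 11.77 and 11.80 on the depleted arrays, against 11.74 and 11.81 on the controls. Its log2 fold change was 0.01 (95% interval −0.51 to 0.54, limma adjusted p = 0.973), 0.05 without control replicate 2 and −0.03 without control replicate 1. It was brighter than 99.9% of the named genes. RefSeq lists the pseudogenes Dppa5b, Dppa5c and Dppa3-ps beside these genes, and the sources used here do not say which copies each probe set reads, so signal from the copies cannot be told apart.

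Of the Dppa genes, 3 had a second, dimmer probe set, and for Dppa2 and Dppa3 the choice between the rows set the size of the difference. The brighter Dppa2 row (probe set 10463138, mean 8.66) gave the log2 fold change of 0.48 above. The other (10436053, mean 8.63), almost as bright, read 8.73 and 8.65 on the depleted arrays, against 8.53 and 8.61 on the controls, which is a difference of 0.12 (limma adjusted p = 0.762 over the 21789 rows with 1 symbol). The groups did not overlap on either row, with the depleted arrays higher on both. For Dppa3 the order was the other way round. Its dimmer row (10604135) read 9.40 and 9.19 on the depleted arrays, against 8.89 and 8.60 on the controls, and gave 0.55 (limma adjusted p = 0.205), or 0.41 without control replicate 2, with no overlap between the groups. Its brighter row (10541515) gave 0.18 with overlap. Both Dppa4 rows stayed near 0, at −0.05 (10436050) and −0.01 (10486954), but the dimmer one had controls as far apart as 8.31 and 7.81. The mean of both rows gave a log2 fold change of 0.30 for Dppa2, 0.37 for Dppa3 and −0.03 for Dppa4. None of the 12 rows passed the test. The sources used here do not say which genomic copy each row reads, so neither value of Dppa2 or Dppa3 can be preferred. The second rows were examined after the data had been seen.

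**Figure D2:**
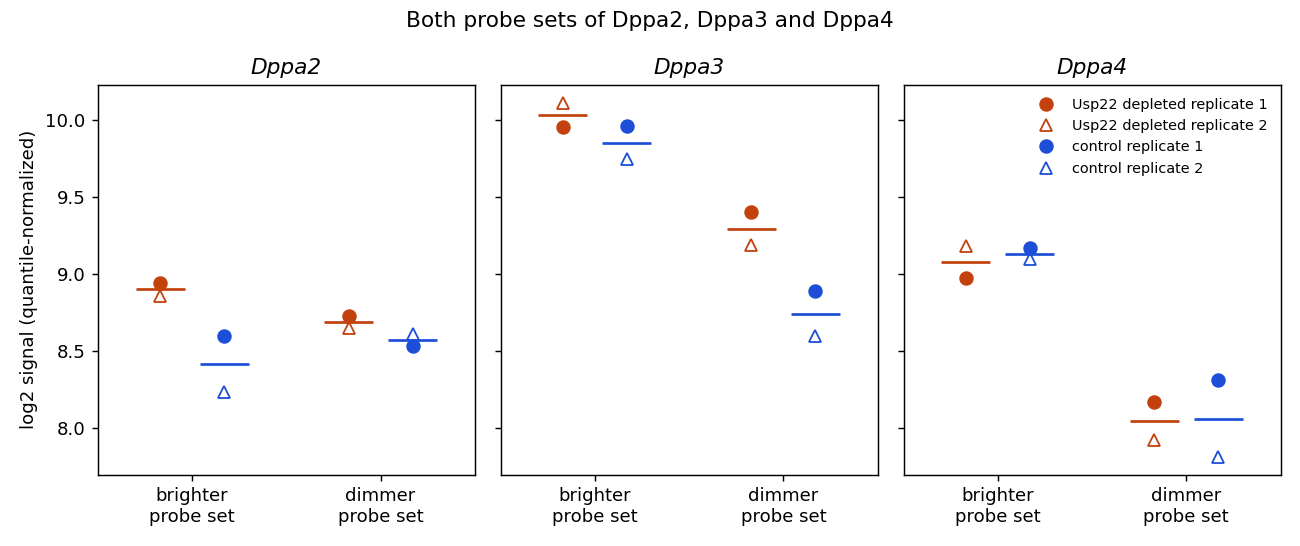
Log2 signal (y axis) of the brighter and the dimmer probe set (x axis) of Dppa2, Dppa3 and Dppa4, with depleted arrays in orange on the left of each pair, controls in blue on the right, and bars at the group means. The gap between groups is wide on the brighter row for Dppa2 (0.48) and on the dimmer row for Dppa3 (0.55), and near 0 on both rows of Dppa4.

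Of the 3 surface markers, Pecam1 and Epcam had larger differences than the other 7 measured markers in the fit used here, and Alpl did not. This order was not tested. Without control replicate 1, Dppa2 (0.67) stood above Epcam (0.51), and the dimmer Dppa3 row gave 0.55 in all 4 arrays. Pecam1 (CD31), an adhesion molecule of the immunoglobulin family found on endothelium and on naive mouse stem cells, read 8.86 and 8.70 on the depleted arrays, against 8.20 and 7.98 on the controls. In deposited signal this was 479 and 428 on the depleted arrays, against 296 and 247 on the controls. Both depleted arrays lay above both controls, at 8.78 ± 0.11 for depletion against 8.09 ± 0.16 for control (SD, n = 2 each). The log2 fold change was 0.69 (standard error 0.27, limma adjusted p = 0.122), or 1.61-fold, higher than that of 92.4% of all genes. Its unadjusted 95% interval of 0.16 to 1.21 left out 0, and it passed the test under some settings. The limma adjusted p was 0.0497 with the intensity trend and robust settings, under which 1.91% of all genes were called higher and 1.7% lower. It was 0.0366 with arrays centred on their medians (4.65% called higher) and 0.0458 with genes under the receptor background left out (6.89% called higher). Leaving out control replicate 1 gave an adjusted p of 0.00614 for 0.80, in a fit that called 24.5% of all genes higher and in which Dppa2 also passed (0.67, limma adjusted p = 0.0178). Leaving out control replicate 2 gave Pecam1 an adjusted p of 0.233 for 0.58.

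Pecam1 is also a marker of endothelium, so 10 other endothelial genes were read beside it. Of these, 0 rose and 0 fell by limma (1 higher and 2 lower at an unadjusted p under 0.05, and 0 with the trend and robust settings). Without overlap 1 was higher and 6 were lower, against 27.4% of all genes higher and 33.3% lower. The median log2 fold change of the 10 genes was −0.25, or −0.21 without control replicate 2. Their summed normalized signal was 1238 and 1340 on the depleted arrays, against 1457 and 1589 on the controls. Only Plvap, Egfl7 and Vwf exceeded the receptor background. The endothelial cadherin gene Cdh5 read 6.35 and 6.19 on the depleted arrays, against 6.39 and 6.90 on the controls, all under that background. The Tie2 receptor gene Tek (0.73, limma adjusted p = 0.102) and Plvap (−0.62, limma adjusted p = 0.162, and −0.39 without control replicate 2) had the lowest p-values. The part of endothelial cells in the Pecam1 value was not tested.

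Epcam, an adhesion protein of epithelia and pluripotent cells, read 9.25 and 9.35 on the depleted arrays, against 8.79 and 8.79 on the controls. Its control arrays were nearly equal (SD 0.00098), and both lay under both depleted arrays. This gave a log2 fold change of 0.51 (standard error 0.27, limma adjusted p = 0.237), or 1.42-fold, and it stayed at 0.51 without control replicate 2. Leaving out each array in turn kept it between 0.46 and 0.56, the narrowest range, relative to its size, of the 4 markers that stood higher without overlap. Alpl, the tissue-nonspecific alkaline phosphatase behind the classic stain of stem cell colonies, read 9.35 and 9.01 on the depleted arrays, against 9.04 and 8.77 on the controls. Depleted replicate 2 lay level with control replicate 1, so the groups overlapped. Its log2 fold change was 0.28 (95% interval −0.25 to 0.80, limma adjusted p = 0.473), and 0.14 without control replicate 2. It moved between 0.11 without depleted replicate 1 and 0.45 without depleted replicate 2.

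In the fit used here, L1td1 was the one marker lower on both depleted arrays than on both controls. It read 9.67 and 9.82 on the depleted arrays, against 10.19 and 10.08 on the controls, or 9.74 ± 0.11 for depletion against 10.14 ± 0.081 for control (SD, n = 2 each). In deposited signal this was 839 and 935 on the depleted arrays, against 1176 and 1018 on the controls. The difference was −0.39 on the log2 scale (95% interval −0.92 to 0.13, limma adjusted p = 0.329), and −0.45 without control replicate 2. The limma adjusted p was 0.0624 with the intensity trend and robust settings. Centring each array on its median shrank the difference to −0.16, and its groups then overlapped. Fbxo15, whose protein is a substrate receptor of SCF ubiquitin ligases, read 9.08 and 9.00 on the depleted arrays, against 8.90 and 8.61 on the controls. Its depleted values lay above both controls, by less than 0.1 for the nearest pair. The log2 fold change was 0.28 (95% interval −0.24 to 0.81, limma adjusted p = 0.467), and 0.14 without control replicate 2.

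**Figure D3:**
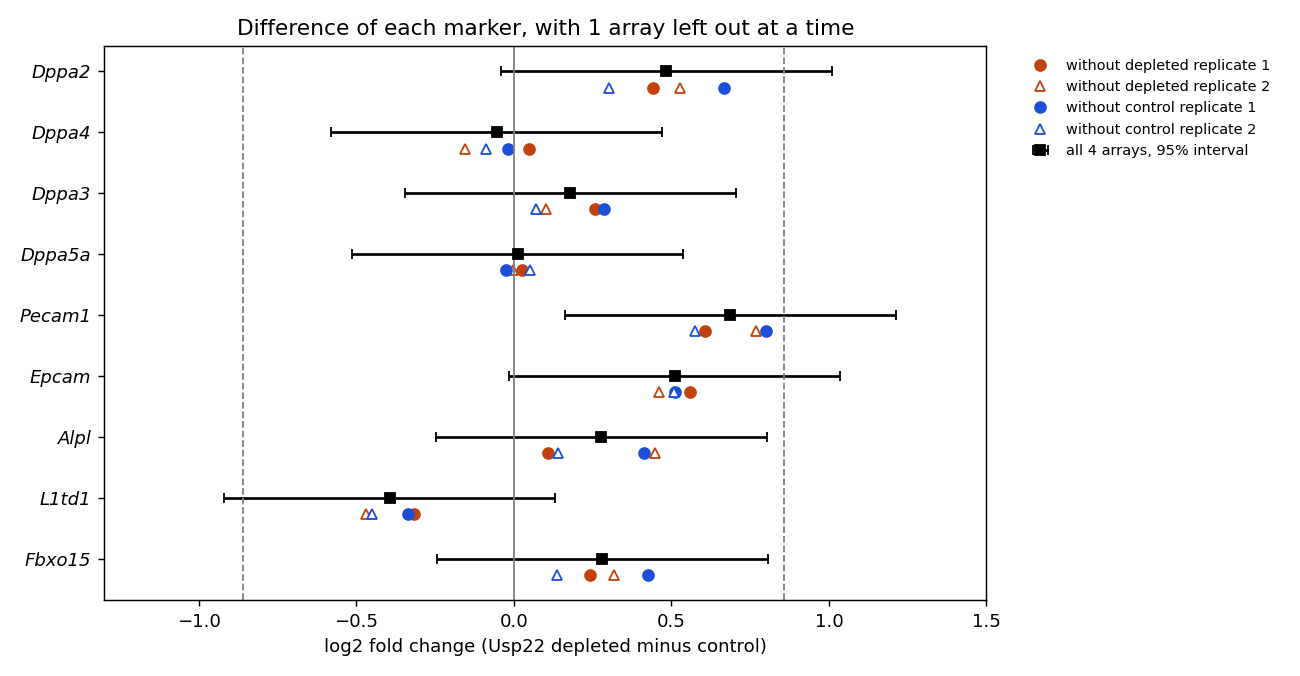
Log2 fold change (x axis, Usp22 depletion minus control) of each marker with its unadjusted 95% interval (black squares and bars), and below it the value with 1 array left out (orange, a depleted array; blue, a control). The dashed lines at 0.859 in either direction mark the smallest change that passed the test among all genes, and all 9 markers lie inside them.

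Promoter sequences in the RefSeq-derived table (GRCm38.p6, 250 bases before the annotated start to 50 after) were at hand for 3 of the 9 measured markers, Epcam, L1td1 and Alpl. The windows of Epcam and L1td1 are shown because these genes stood on opposite sides without overlap in the fit used here, though neither passed the test. The Epcam window is chr17:87635729-87636028 on the plus strand and the L1td1 window chr4:98726504-98726803 on the plus strand, both 5′ to 3′. Capitals mark the only match of the motifs searched.
Epcam: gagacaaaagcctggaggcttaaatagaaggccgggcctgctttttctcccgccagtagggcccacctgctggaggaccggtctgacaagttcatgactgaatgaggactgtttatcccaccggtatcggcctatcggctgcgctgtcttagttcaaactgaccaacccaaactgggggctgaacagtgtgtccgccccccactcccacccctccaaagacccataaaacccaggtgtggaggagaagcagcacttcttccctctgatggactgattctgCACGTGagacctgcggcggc
L1td1: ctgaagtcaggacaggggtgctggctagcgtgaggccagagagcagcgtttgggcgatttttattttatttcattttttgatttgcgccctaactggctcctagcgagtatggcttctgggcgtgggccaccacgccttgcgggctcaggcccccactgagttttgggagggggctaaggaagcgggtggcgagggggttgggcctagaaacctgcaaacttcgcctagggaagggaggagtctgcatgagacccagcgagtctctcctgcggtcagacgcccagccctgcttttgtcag

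Both strands were read for 6 motifs, and shares are of all 32851 windows in the table. These were the octamer ATGCAAAT (1.74% of windows), the SOX motif CATTGTT (3.78%), the estrogen-related receptor motif TCAAGGTCA (0.423%), the E-box CACGTG (7.15%), the GC box GGGGCGGGG (11.4%) and the TATA box TATAAA (13.6%). None of them overlapped another in these windows. The Epcam window held the E-box, which begins 30 bases after the start, and the L1td1 window held none of the 6. Alpl has a pair of annotated starts: one window held 2 GC boxes and the other the TATA letters in reverse (TTTATA). A match of letters is a description and not a bound site.

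The order of the arrays was similar across several markers. Control replicate 2 was the lowest of the 4 arrays for 6 of the 9 markers, against 37.8% of all genes and 46.7% of genes above the receptor background. It read under control replicate 1 for 8 of the 9, the exception being Dppa5a. For the markers the median gap between replicates was 0.15 for the depleted arrays and 0.21 for the controls, and over all genes it was 0.18 for the depleted arrays and 0.36 for the controls. Scaling moved every marker the same way. With each array centred on its median, 8 of the 9 stood above 0, with a median of 0.49, against −0.09 for all genes and 0.13 for genes above the receptor background. On the deposited log2 values the median was 0.35 with 8 above 0, while the median of all genes was −0.24, a shift of over 0.1 from the −0.12 in the fit used here. L1td1 stayed under 0 and Pecam1 stayed the highest under all 3 scalings. The counts without overlap moved with the scaling. Under median centring 7 markers were higher and 0 lower without overlap, where 61% of all genes stood apart either way. On the deposited log2 values 6 were higher and 1 lower, where 66.7% of all genes stood apart.

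**Figure D4:**
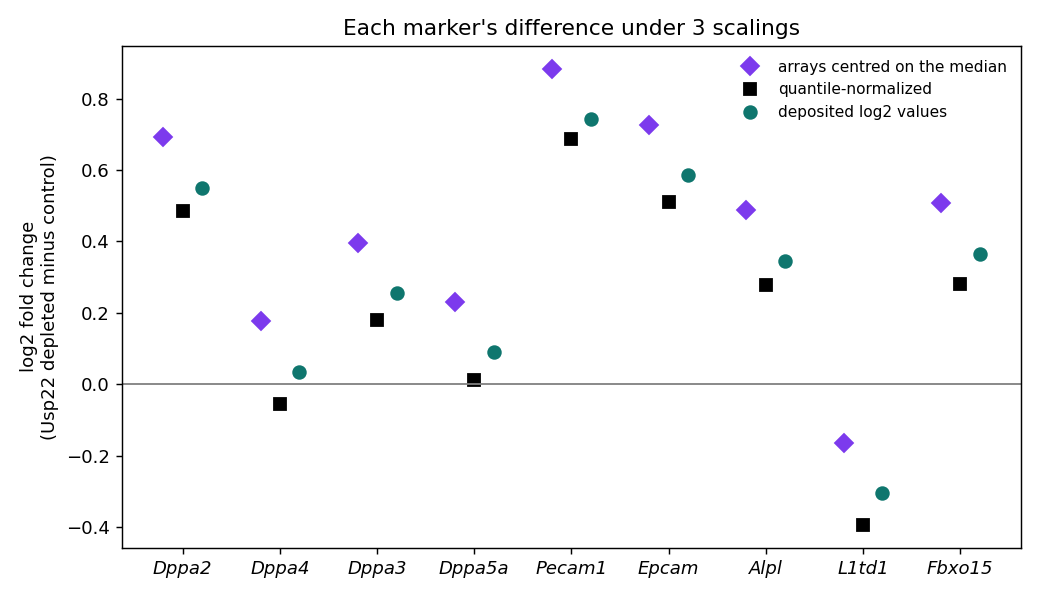
Log2 fold change (y axis, Usp22 depletion minus control) of each marker (x axis) with arrays centred on the median (diamonds), quantile-normalized (squares) and as deposited on the log2 scale (circles). Each marker is highest under median centring, Dppa4 changes sign (0.18, −0.05 and 0.03), and L1td1 lies under 0 each time.

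For each marker the 2 genes with the closest pattern were taken by Euclidean distance between log2 values centred on each gene's mean, over the 4 arrays. With 4 arrays many genes share any pattern, so this is a description. The closest to Pecam1 were Trim59 and Tasor (distances 0.020 and 0.022), and to Epcam Reep5 and Cstb (0.039 and 0.043). L1td1 lay nearest to Herc1 and Cnbp (0.016 and 0.021), and Dppa2 to Wdr36 and Zfp511 (0.025 and 0.029). For Dppa4 the pair was Ckb and Syngr2, for Dppa3 Pole4 and Pgp, for Dppa5a Snrpd1 and Uqcrq, for Fbxo15 Hcfc1r1 and Hmgn5, and for Alpl Aff4 and Etf1, at distances from 0.0060 to 0.037. None of the 18 genes passed the test (limma adjusted p from 0.120 to 0.968).

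Other stem cell markers outside the set gave a similar picture. Of 20 measured, 0 rose and 0 fell (limma), and 11 were higher and 4 lower without overlap. Over all genes, 27.4% were higher and 33.3% lower without overlap, and 74.6% of genes above the receptor background stood apart either way. The median log2 fold change of the 20 was 0.30, or 0.17 without control replicate 2. At an unadjusted p under 0.05, 0 of the 20 were higher and 1 lower. That gene was Tex19.1, a germline and placental factor that limits retrotransposons, at 9.53 and 9.80 on the depleted arrays, against 10.22 and 10.19 on the controls (−0.54, limma adjusted p = 0.220). Its limma adjusted p was 0.00883 with the intensity trend and robust settings, the 1 call among the 20. The lysosomal mannosidase gene Manba had the next lowest p (0.49, and 0.29 without control replicate 2, limma adjusted p = 0.249). The 11 naive transcription factor genes had a median of −0.11 (−0.23 without control replicate 2), with 5 higher and 5 lower without overlap and 0 called by limma in either direction (2 higher and 3 lower at an unadjusted p under 0.05, and 1 and 3 with the trend and robust settings). Tbx3 and Klf4 led that list, at −0.67 and −0.64 (limma adjusted p = 0.131 and 0.151). Without control replicate 2 both stood at −0.57. With the trend and robust settings their limma adjusted p was 2.91e-05 and 0.0215. The difference between these lists and the markers was not tested.

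Dppa2 and Dppa4 activate genes of the 2-cell embryo, and most of these were too dim to read. Of 21 such genes 10 were measured and 1, Tcstv3, lay above the receptor background. Tdpoz3 rose (log2 fold change 1.01, limma adjusted p = 0.0218, and 0.86 without control replicate 2), but its signals of 6.04 and 6.06 on the depleted arrays, against 5.19 and 4.89 on the controls, all lay under that background, and 0 of the 10 fell. Over all genes, limma called 2.62% higher and 0.105% lower. With the trend and robust settings 0 of the 10 passed. Tcstv3 read 7.96 and 7.93 on the depleted arrays, against 7.80 and 6.94 on the controls (0.57, and 0.15 without control replicate 2, limma adjusted p = 0.191). The list had a median of 0.03, or −0.02 without control replicate 2. These genes belong to families of near-identical copies, so a row can read several of them.

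Dppa3 limits the action of Uhrf1 and Tet3 on DNA methylation, and it marks germ cells. Of 7 measured methylation genes 0 rose and 0 fell (limma, 0 and 0 also at an unadjusted p under 0.05 and with the trend and robust settings), with a median of −0.31, or −0.19 without control replicate 2. The oxidase gene Tet3 stood at −0.45 (limma adjusted p = 0.283, and −0.19 without control replicate 2) and the methyltransferase gene Dnmt3b at 0.40 (limma adjusted p = 0.319). Of 8 germ cell genes 3 rose and 0 fell, with a median of 0.39 (0.38 without control replicate 2). Over all genes, limma called 2.62% higher and 0.105% lower. The 3 were the synaptonemal complex gene Sycp3 (log2 fold change 1.09), the piRNA factor gene Mael (1.04) and Prdm1 (Blimp1, 0.97), a regulator of primordial germ cells. Their limma adjusted p ran from 0.0106 to 0.0267. With the trend and robust settings 2 of the 8 rose, Sycp3 and Mael, and Prdm1 did not pass. Without control replicate 2 they stood at 0.82, 0.80 and 0.71. By mean signal all 3 lay under the receptor background. The summed signal of the germ cell list was 2394 and 2280 on the depleted arrays, against 1982 and 1758 on the controls. Its part in the Dppa3 values was not tested.

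Tdh encodes threonine dehydrogenase, which feeds glycine and one-carbon units in mouse stem cells, and its partner enzymes were measured. Of 16 genes 0 rose and 0 fell (limma), and 10 were higher and 1 lower without overlap. Over all genes, 27.4% were higher and 33.3% lower without overlap, and 74.6% of genes above the receptor background stood apart either way. The median of the 16 was 0.29, or 0.14 without control replicate 2. At an unadjusted p under 0.05, 3 of the 16 were higher and 0 lower. The mitochondrial serine hydroxymethyltransferase gene Shmt2 read 8.46 and 8.37 on the depleted arrays, against 7.85 and 7.38 on the controls (0.81, limma adjusted p = 0.0692, and 0.57 without control replicate 2). Its limma adjusted p was 0.0497 with the trend and robust settings, the 1 call in the list. Dld, which encodes a shared subunit of the glycine cleavage system, stood at 0.71 (limma adjusted p = 0.111, and 0.42 without control replicate 2). Gcat, which encodes the enzyme that acts directly after threonine dehydrogenase, was named after its value was seen, at 0.52 (limma adjusted p = 0.231, and 0.33 without control replicate 2).

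Genes that act with the other markers were read in the same way. Of 13 measured partners and processing enzymes of Epcam, 0 rose and 0 fell (limma; 2 higher and 0 lower at an unadjusted p under 0.05, and 0 with the trend and robust settings), with a median of 0.13 (0.07 without control replicate 2). The sheddase genes Adam17 and Adam10, whose products cut Epcam, stood at 0.66 and 0.62 (limma adjusted p = 0.139 and 0.163), and at 0.38 and 0.19 without control replicate 2. Over all genes, 27.4% were higher and 33.3% lower without overlap, and 74.6% of genes above the receptor background stood apart either way. The 4 measured genes of the SCF core, which holds F-box proteins such as Fbxo15, were all higher without overlap. Of the 4, 0 were called by limma, 0 passed at an unadjusted p under 0.05 and 0 with the trend and robust settings. Their median was 0.37 (0.21 without control replicate 2), with Cand1 at 0.48 and Rbx1 at 0.40 (limma adjusted p = 0.258 and 0.321), or at 0.31 and 0.28 without control replicate 2. Beside L1td1, 6 RNA-binding protein genes of stem cells had a median of −0.19 (−0.31 without control replicate 2), with 1 higher and 3 lower without overlap and 0 called by limma (0 higher and 1 lower at an unadjusted p under 0.05). Igf2bp1 read 9.84 and 9.91 on the depleted arrays, against 10.47 and 10.34 on the controls (−0.53, limma adjusted p = 0.225, and 0.00577 with the trend and robust settings), and Igf2bp3 stood at 0.49 (limma adjusted p = 0.251, and 0.18 without control replicate 2). Of 5 genes of alkaline phosphatase paralogs and pyrophosphate handling, 1 lay above the receptor background, 0 were called by limma, 0 passed at an unadjusted p under 0.05 or with the trend and robust settings, and the median was −0.08 (−0.03 without control replicate 2). Phospho1 stood at 0.48 and Alpi at −0.36 (limma adjusted p = 0.258 and 0.370), or at 0.15 and −0.17 without control replicate 2.

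**Figure D5:**
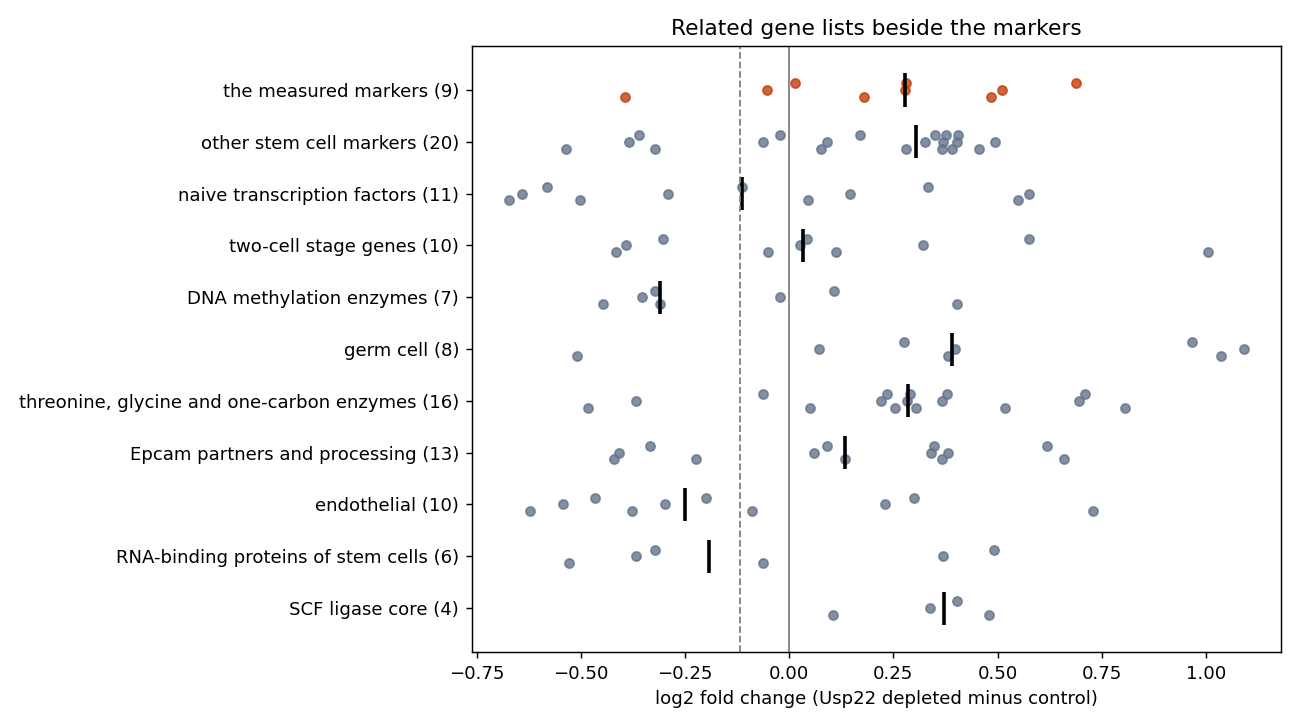
Log2 fold change (x axis, Usp22 depletion minus control) of every measured gene of the markers (orange) and of 10 related lists (grey), with black ticks at each list's median and a dashed line at the median of all genes (−0.12). The number of measured genes follows each name. Tdpoz3 and 3 germ cell genes reach furthest to the right.

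Markers of other cells were also read. Of 10 feeder fibroblast genes 4 lay above the receptor background, with a median of −0.18, and of 8 primitive endoderm genes 3 did, with a median of −0.44 (−0.22 without control replicate 2). None rose and none fell by limma (1 higher and 2 lower, and 0 and 0, at an unadjusted p under 0.05, and 0 with the trend and robust settings). Col1a1 and Acta2 stood at −0.60 and 0.57, and Cubn and Gata4 at −0.50 and −0.50 (limma adjusted p from 0.177 to 0.245). Without control replicate 2 these were −0.24, 0.22, −0.39 and −0.24. The summed signal of the fibroblast list was 1222 and 1284 on the depleted arrays, against 1296 and 1511 on the controls, and that of the endoderm list was 719.7 and 734 on the depleted arrays, against 824 and 1053 on the controls. Their part in the markers' values was not tested.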

How the data were processed

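The authors deposited linear intensities for 28856 probe sets on each of the 4 arrays, from biotin-labelled cDNA hybridised to Affymetrix arrays per the labels' protocols. How they summarised and normalized them is not given in the sources used here. No scanner file or scan date was used. The log2 of each intensity was taken and the arrays were quantile-normalized. Rows were named through GEO's platform annotation, which can be old (21789 rows with 1 symbol, 1621 with several, 5446 unnamed here, and 21698 matched to RefSeq by gene ID). The brightest row per gene was fitted with lmFit and eBayes of limma 3.58.1 (R 4.3.3) as 2 groups, two-sided. With 2 residual and infinite prior degrees of freedom, all genes shared a standard error of 0.27, and the intervals rest on it. An exact permutation test of 2 against 2 cannot go below p = 0.333. The number of arrays limits the precision. The fit was also run on simulated data with noise of equal spread for all genes and arrays. Such data cannot show how the fit handles an array that stands apart, as control replicate 2 did.

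The markers and lists were chosen with earlier results of these data known. All members were named, and of each other list the genes that passed, or otherwise the 2 with the lowest p. Outside this rule, Usp22, the defining stem cell markers, the genes closest in pattern, Cdh5, Egfl7, Vwf, Tcstv3 and Gcat were also named.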

Additional observations from a re-analysis of the deposited data

How the results depend on the processing

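The number of markers called higher was 0 in the fit used here and 1, Pecam1, with median-centred arrays, with the intensity trend and robust settings, and above the receptor background. It ranged from 0 to 2 (Pecam1 and Dppa2, without control replicate 1) when 1 array was left out. No marker was called lower under any of the 14 other settings. The median of the markers was 0.28, moved to 0.49 with median-centred arrays, and ranged from 0.14 (without control replicate 2) to 0.41 (without control replicate 1). Dppa4 changed sign with median-centred arrays (0.176) and on the deposited log2 values (0.035), and with 1 array left out it ran from −0.156 to 0.047 (without depleted replicate 1). Dppa5a ran from −0.026 (without control replicate 1) to 0.052 with 1 array left out, and was −0.0014 without depleted replicate 2. Alpl, Dppa2, Dppa3, Epcam, Fbxo15, L1td1 and Pecam1 kept their sign under all 14. Dppa2 passed without control replicate 1 (0.67, limma adjusted p = 0.0178), where 24.5% of all genes were called higher. The causes were not tested. A pseudocount of 16, the mean of a gene's rows, the dimmest 0.25 of genes left out, and the trend or the robust settings alone left 0 markers called.

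Counts of all genes called moved more: 523 higher and 21 lower here, 927 and 20 with median-centred arrays, 75 and 10 on the deposited log2 values, 381 and 339 with trend and robust settings, 326 and 286 with the trend alone, 295 and 11 with robust settings alone, 739 and 36 without the dimmest genes, 671 and 149 above the receptor background, 659 and 47 with the pseudocount, and from 0 to 4884 higher and from 0 to 4236 lower with 1 array left out. The higher share of calls was 96.1% here, 97.9% with median centring and 88.2% on the deposited values. The replicate number as a block gave 856 and 42, called 0 markers, left the markers' median at 0.28 and gave Pecam1 a limma adjusted p of 0.0844. The numbers are not known to pair the arrays (correlation of deviations 0.105 across genes). A group left with 1 array is assumed to vary like the other group.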
